A study of Mus musculus with 2 samples.

Results

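The genes described are 7 components of Notch signalling in mouse primary neurospheres. They are the receptors Notch1, Notch2 and Notch3, the ligands Dll1, Dll3 and Jag1, and the glycosyltransferase Mfng (manic fringe). They were taken by name as 7 of the 19144 genes of a count table. The rule used no measured value, but earlier results of these data were known when the members were chosen. Their transcripts were measured in 3765 of 4000 barcodes, those that passed a floor of 500 genes and a ceiling of 10% for mitochondrial UMIs. These barcodes are called cells below.

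The cells came from neurospheres, floating colonies grown from the dissociated ventricle walls of CD1 mouse embryos (lateral ventricles of the forebrain), in serum-free medium with the cytokine leukemia inhibitory factor (LIF, 10 ng/mL). The embryonic age is not given in the labels, and the protocol names a further supplement, EFH, without defining it. Transcripts were captured by Drop-seq, which tags each cell with a barcode and each transcript with a molecular identifier (UMI). The series text speaks of nuclei and the protocol of dissociated cells, and the labels list 2 samples of 1 group, pNSCs1 and pNSCs2, with nothing that ties a barcode to either of them. The table was therefore treated as 1 sample with no replicates, no test was made, and each 95% interval covers counting error only.

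Notch receptors are single-pass membrane proteins that are activated by Delta and Jagged ligands on a neighbouring cell. Ligand binding leads to cleavage by ADAM proteases and gamma-secretase, and the freed intracellular domain joins the DNA-binding protein RBPJ to switch on targets such as Hes1, Hes5 and Nrarp. In the embryonic forebrain, cells that begin to differentiate raise Delta ligands under proneural factors, and Notch activity in their neighbours keeps those as progenitors. Dll3 differs from the other ligands in acting mainly inside its own cell, where it dampens Notch signalling, and fringe enzymes add sugars to the receptors that alter their response to each ligand class.

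The upstream sequences of the Delta genes are shown because Delta ligands are known targets of proneural factors, and E-boxes are the class of motif that these factors bind. RefSeq windows of 300 bases (250 before to 50 after a transcript start, GRCm38.p6) were found for 6 of the 7 members, with a further start for Dll1. The 250 bases before one of the Dll1 starts, chr17:15376933-15377182 on the minus strand, lie within an exon of A930024N18Rik on the opposite strand. The Dll3 and Jag1 windows overlap a first exon of the same gene in GENCODE M21. For these, only 30 bases around each E-box of the forms searched are given, all on the minus strand. The sequences run 5′ to 3′ and capitals mark the E-box forms searched, CAGCTG and CAGGTG. Other E-box forms were not searched and are left unmarked. CAGCTG reads the same on both strands, and CAGGTG appears in Dll3 as its reverse complement.
Dll1, chr17:15376933-15377182: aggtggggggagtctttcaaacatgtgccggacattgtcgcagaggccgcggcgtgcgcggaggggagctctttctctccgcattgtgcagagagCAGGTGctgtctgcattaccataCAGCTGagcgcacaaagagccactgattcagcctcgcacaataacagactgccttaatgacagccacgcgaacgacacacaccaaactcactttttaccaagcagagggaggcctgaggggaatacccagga
Dll3, chr7:28301996-28302025: tagagaggaatgCACCTGtatttccgttct
Dll3, chr7:28301775-28301804: tccggcatccagCAGCTGcgactcctgaga
Jag1, chr2:137116585-137116614: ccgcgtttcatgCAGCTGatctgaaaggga

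The E-box CAGCTG was in the windows of 3 of 6 members, Dll1, Dll3 and Jag1, where 18.3% of 27025 genes had it in at least 1 window. CAGGTG, searched on both strands, was in those of Dll1 and Dll3 and of 22.6% of genes. Of the 2 Dll1 windows, 1 held both forms and the other neither. The 2 Dll1 matches to these forms started 155 and 132 bases before the transcript start. Those of Dll3 started 228 and 7 bases before it, and that of Jag1 82 bases before it. The RBPJ core TGGGAA, on either strand, was in none of the 6 members' windows and in those of 28.3% of genes. A match describes letters in a window, and nothing measured here bears on binding.

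The 3765 cells held 17395968 UMIs, with a median of 3869 per cell (638 to 54060). The summed radial glia markers stood at 13831 CPM (UMIs scaled to a total of 1000000), against 11.04 CPM for endothelial, 15.6 CPM for mural and 0.690 CPM for microglial markers. Endothelial and mural cells also use Notch1, Notch3 or Jag1. Of the defining mural markers, Pdgfrb, Kcnj8 and Abcc9 had no row among those analysed here, and 192 UMIs of the endothelial list were found in all, of which Egfl7 gave 102. The doublet caller marked 0 cells and was taken not to have worked, so no doublets were removed.

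All 7 members were detected, at low to intermediate levels for single genes. Each UMI marks 1 transcript whatever its length, so levels of different genes are compared as CPM with no division by length. Together the members had 3153 UMIs (181 CPM), with the 3 receptors at 87.4 CPM (83.1 to 91.9) and the 3 ligands at 83.2 CPM (78.9 to 87.6). Transcripts of these 3 receptors and these 3 ligands were thus present in nearly equal amounts, with overlapping intervals. Among the listed Notch genes outside the members, ligands had 91.8 CPM, of which Dner gave 85.5 CPM. The receptor Notch4 had 1.44 CPM.

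Among the receptors Notch1 was the most abundant, with 991 UMIs at 57.0 CPM (53.5 to 60.6), rank 3443 of 19063 detected genes. Notch3 had 301 UMIs at 17.3 CPM (15.4 to 19.4), and Notch2 had 229 UMIs at 13.2 CPM (11.5 to 14.98). Notch1 therefore supplied most of the receptor transcripts. The gene lies at chr2:26457903-26516663, minus strand (mm10), and overlaps 0610009E02Rik on the opposite strand by 1488 bases. Whether the counting used strand is not given in the sources used here, so reads of these genes cannot be told apart with certainty. The same holds for Notch3 with Gm17276 (21024 bases) and Dll1 with A930024N18Rik (1873 bases) on the opposite strand, and for Notch2 with Gm42819 and Gm42820 on its own strand. Notch2 lies at chr3:98013527-98150361 on the plus strand and Notch3 at chr17:32120820-32166852 on the minus strand.

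Among the ligands the Delta genes led. Dll3 had 634 UMIs at 36.4 CPM (33.7 to 39.4), Dll1 had 487 at 28.0 CPM (25.6 to 30.6), and Jag1 had 326 at 18.7 CPM (16.8 to 20.9). Dll3 lies at chr7:28293553-28302238, Dll1 at chr17:15367354-15376872 and Jag1 at chr2:137081456-137116644, all on the minus strand. Mfng, at chr15:78755882-78773475 on the minus strand, was the lowest member, with 185 UMIs at 10.6 CPM (9.16 to 12.3).

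In the order Notch1, Dll3, Dll1, Jag1, Notch3, Notch2 and Mfng, neighbouring levels differed by 1.24 to 1.56 times beyond counting error, with 1 exception. The ratio of Jag1 to Notch3 was 1.08 (0.923 to 1.27), and their order was not settled at this depth. The Notch2 to Mfng ratio of 1.24 was close to that limit (1.02 to 1.51). As a mean of per-cell CPM Mfng stood at 13.8 and Notch2 at 13.7, so their order depended on the measure.

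Over all cells, detection followed the order of the levels. Without correction for depth, Notch1 had a UMI in 20.7% of cells, Dll3 in 12.1%, Dll1 in 9.96%, Jag1 in 7.30%, Notch3 in 7.09%, Notch2 in 5.44% and Mfng in 4.46%. To compare cells at equal depth, 2436 cells were thinned at random to 3000 UMIs and 1329 shallower ones were left out. Notch1 was then found in 15.4% (14.0 to 16.9), Dll3 in 8.50% (7.42 to 9.68) and Dll1 in 7.43% (6.42 to 8.54) of cells. Jag1 and Notch3 were each in 4.89%, Notch2 in 3.16% and Mfng in 2.75%. At 1000 UMIs the lower members stood in another order, with Notch3 in 1.82%, Jag1 in 1.73%, Mfng in 1.71% and Notch2 in 1.17% of cells, and the intervals of all 4 overlapped.

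Immature neuron-like cells were used to gauge free RNA, since neurons carry few Notch receptors. Of the 31 such cells with 1000 or more UMIs, 1 had a Notch1 UMI and 0 a Notch2 or Notch3 UMI after thinning to 1000, and 0 of 31 cells allows a share of up to 9.68%, taking 3 counts as the limit for a count of 0. Over all 3576 cells of that depth the shares were 5.62% for Notch1, 1.82% for Notch3 and 1.17% for Notch2. The median depth of the neuron-like cells was 1964 UMIs, and Notch1 stood there at 75.01 CPM (30.2 to 155). The limit lies above the receptor shares, so these few cells do not separate expression from free RNA.

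**Figure D1:**
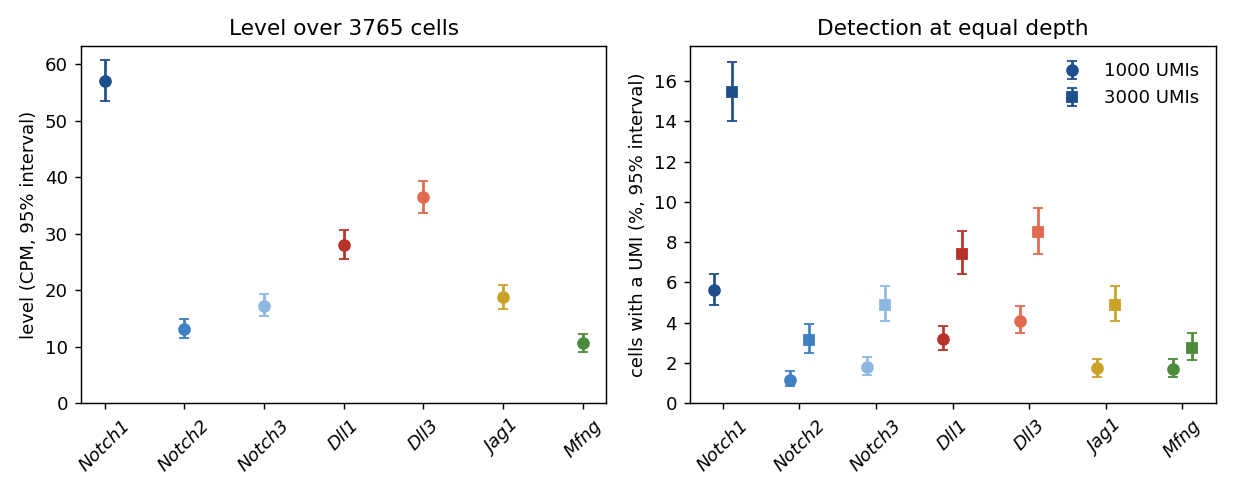
Level of each member in CPM over all 3765 cells (left) and share of cells with a UMI after thinning to 1000 or 3000 UMIs (right), points with 95% intervals for counting error. Notch1 stands highest in both panels, the Delta genes follow, and Mfng is lowest in level.

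Delta transcripts were the most unevenly spread over cells. At 3000 UMIs the variance of UMIs per cell was 1.56 times the mean for Dll3 and 1.47 times for Dll1, against 1.09 to 1.12 for the other 5 members. Among cells with Dll1, 15.5% had 2 or more UMIs, where a Poisson spread of the same mean gives 4.49%. The same share was 14.5% for Dll3 (Poisson 5.18%) and 12.5% for Notch1 (Poisson 8.53%). Up to 7 UMIs of Dll3 were seen in 1 cell, against a highest count of 5 for Notch1. Because Dll1 and Dll3 UMIs clustered in cells, their counting intervals understate the spread between cells.

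In cells of 3000 or more UMIs, member receptor and ligand transcripts were found together about as often as their separate shares imply. At 3000 UMIs, 542 cells had a receptor UMI, 467 a ligand UMI and 118 both, where the product of the shares gives 104 cells. The ratio was 1.14 (0.944 to 1.35), an interval that includes 1. By state, 424 cells (17.4%) had a receptor alone, 349 (14.3%) a ligand alone, 118 (4.84%) both, and 1545 (63.4%) neither. A cell thinned to 3000 UMIs can miss a transcript that it holds at these levels, so the states are not expression classes. Cells of fewer than 3000 UMIs were left out here and in the other comparisons at this depth. Dll1 and Dll3 stood highest in the shallowest quartile of all cells by total UMIs, at 55.1 and 81.3 CPM. For Dll1 or Dll3 with any receptor the count was 97 against a product of 81.2, a ratio of 1.19 (0.972 to 1.45). Notch1 was found with Dll1 in 36 cells (ratio 1.29) and with Dll3 in 31 (ratio 0.970). Without the deepest 10% of barcodes the receptor and ligand ratio was 0.958 (0.762 to 1.19). Doublets were not removed, and their part in co-detection was not tested.

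The intervals of all 21 member pairs included 1 in this thinning. The 3 highest ratios all had Dll1 as a partner, at 2.01 (0.964 to 3.69, 10 cells) with Mfng, 1.58 with Notch3 (14 cells) and 1.495 (0.949 to 2.24, 23 cells) with Dll3. The Dll1 and Dll3 value depended on the draw. The expected detection over all possible draws, from the hypergeometric formula, gave 1.71 at 3000 UMIs and 2.51 at 1000 UMIs, and another draw at 3000 UMIs gave 1.94 (1.28 to 2.81). Across 12 alternatives the ratio lay between 1.33 and 2.53, above 1 throughout, with the whole interval above 1 in 8 of them. The alternatives are not independent. Gene minimums of 200 and 1000 and no mitochondrial limit each gave 25 cells with both, from nearly the same cells and draw. The formula values have no interval. Over the same alternatives Dll1 with Mfng lay between 1.76 and 3.23, and Dll3 with Mfng between 1.33 and 3.78, each with 5 whole intervals above 1. Receptor with ligand was 1.51 (1.09 to 2.05) in 1 draw at 1000 UMIs but 0.998 by the formula at that depth.

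**Figure D2:**
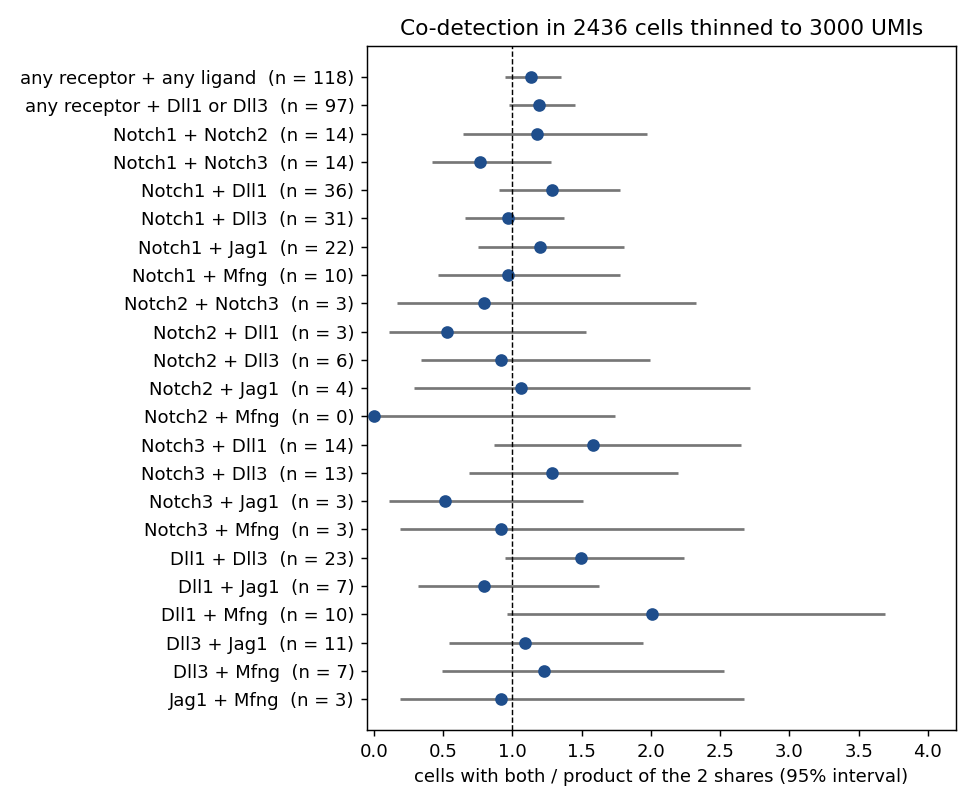
Number of cells with both genes divided by the product of the separate shares, for receptors with ligands and for each of the 21 member pairs, in 2436 cells thinned to 3000 UMIs; lines are 95% intervals and the dashed line marks a ratio of 1. All intervals cross the dashed line, with Dll1 and Mfng at 2.01 and Dll1 and Dll3 at 1.495 the highest of the ligand and fringe pairs.

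In cells with a Delta ligand the intervals of Hes6, Nrarp and Hes1 lay to 1 side of 1, but none passed 1.5-fold as a whole. Other Notch and proneural genes also had intervals above 1, among them Btg2 (1.42), Olig1 (1.26), Olig2 (1.13), Neurod1 (1.93) and Dner (1.33). The share over all genes is not given for this comparison. All genes named here were picked after their values were seen. Of the 365 cells with Dll1 or Dll3 at 3000 UMIs, 2.19% also had Nrarp, a feedback inhibitor and target of Notch, against 5.84% of the cells without. The level ratio of Nrarp was 0.367 (0.165 to 0.718), from 9 UMIs in the cells with a Delta ligand. Hes1, the target that represses proneural genes, was at 0.814 (0.701 to 0.941) and Hes6, an antagonist of Hes1, at 1.39 (1.19 to 1.62). The interval of Hes5, another target, included 1, at 1.10 (0.841 to 1.42).

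Genes of the proneural list found with the Delta ligands and with Mfng were as follows. In the 181 cells with Dll1 the level ratio was 1.85 (1.54 to 2.21) for the antiproliferative gene Btg2 and 3.11 (1.51 to 5.95) for Insm1, a factor of intermediate progenitors. In the 207 cells with Dll3 the ratio for Neurod1, a neuronal differentiation factor, was 3.40 from 11 cells with both. In the 67 cells with Mfng Neurod1 was in 10 cells, at a level ratio of 8.12. Whether the Dll1 and Dll3 ratios differ from each other was not tested, and 23 cells belong to both groups.

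The genes most like each member were taken as the 5 with the highest lower bound of the level ratio between cells with and without a UMI of the member at 3000 UMIs, among 7789 or 7790 genes. For Dll1 these were Cdkn1c (4.12; 2.85 to 5.86), Btg1 (3.24), Sox8 (2.40), Sox4 (2.002; 1.81 to 2.21) and Prss23 (2.23). Cdkn1c encodes the cyclin-dependent kinase inhibitor p57 and also led for Dll3 (3.03; 2.06 to 4.37), before Map3k1 (2.91), 4632415L05Rik, B3gat2 and Ppp2r2b. For Mfng the first gene was Dll1 itself (3.31; 1.95 to 5.30), followed by Pik3ip1, Sox4 (2.06), Wipi1 and RP24-390G17.1. The 19 Dll1 UMIs behind that ratio came from 10 cells. The co-detection ratio of this pair, 2.01 (0.964 to 3.69), had an interval that includes 1. Sox4 encodes a transcription factor of differentiating neural cells. These genes are the extremes of a ranking, and the intervals were not widened for the number of genes ranked. Whole intervals passed 1.5-fold upward for 8 genes with Dll1, 4 with Dll3 and 11 with Mfng. They passed it downward for 9, 5 and 15 genes. All genes named for Dll1 and Mfng passed, and all for Dll3 except Ppp2r2b.

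For Notch1 the first gene was its opposite-strand neighbour 0610009E02Rik (3.23; 2.19 to 4.71), before Efna4 (2.57), Mt2 (1.53), Nradd and Ptprn. For Notch3 it was Apoe (2.82; 2.40 to 3.30), the astroglial apolipoprotein, before Eid2, Bnip3 (2.43), Sh3bp5 and Phc3. For Jag1 the order was Apln (2.92), a peptide hormone gene, Herpud1 (3.10), Rab33b, Noa1 and Usp42. For Notch2, with 77 cells, the genes were Iffo2 (3.06), 3110002H16Rik, 3830406C13Rik, Usp51 and Gak. Few whole intervals passed 1.5-fold upward, for 2 genes with Notch1, 4 with Notch3, 3 with Jag1 and 2 with Notch2. They passed it downward for 0, 4, 6 and 3 genes. Among the genes named, Mt2, Nradd, Ptprn, Phc3, Noa1, Usp42, 3830406C13Rik, Usp51 and Gak did not pass.

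Between G2/M cells and cells low for both phases, Dll3 was the 1 member of 7 whose whole interval was lower by more than 1.5-fold. The ratios of Notch1, Jag1 and Mfng were also lower by more than 1.5-fold, but their intervals reached across that limit. Cells with 1000 or more UMIs were classed by the share of UMIs from S and G2/M gene lists, which hold no member. The 894 G2/M-high cells are the top quartile by the G2/M share, the 725 S-high cells the top quartile by the S share without G2/M-high cells, and the 1287 cycle-low cells lie at or below the median of both. These classes are ranges of a score, and 237 cells lay within 10% of the G2/M limit. A ratio of levels was called where its whole interval passed 1.5-fold. An added rule, that the whole interval lay past 1, was chosen after the data were seen.

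From cycle-low to G2/M-high cells Dll3 went from 44.4 CPM (38.9 to 50.5) to 23.2 CPM (19.3 to 27.6). Its ratio of 0.522 (0.416 to 0.651) was the 1 member ratio of 7 that was called, where 3.95% of the 10192 genes tested were called lower and 4.96% higher. With the added rule 6 of 7 members were lower, against 29.8% of all genes. The median member ratio was 0.651 and that of all genes 0.940. The single member without such an interval was Notch2, at 0.783 (0.540 to 1.13). Cluster 5, described with the clustering, held 21.9% of the Dll3 UMIs. Of its cells 70% were cycle-low and 4.06% G2/M-high, and its part in the member ratios was not tested.

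The receptor Notch1 went from 69.8 to 45.4 CPM between these classes, a ratio of 0.651 (0.551 to 0.768), and Notch3 from 22.7 to 15.6 CPM (0.689). Jag1 went from 23.4 to 14.7 CPM (0.627), Dll1 from 35.0 to 23.4 CPM (0.668) and Mfng from 14.7 to 8.10 CPM (0.549). Depth moved with the classes, with a median of 3579 UMIs in cycle-low, 4383 in S-high and 4949.5 in G2/M-high cells. In cells of 2000 to 6000 UMIs alone, a limit chosen after the data were seen, the Dll1 ratio turned to 1.21 (0.899 to 1.63) and that of Dll3 was 0.648 (0.473 to 0.881), no longer called. In the same band the intervals of Notch3 (0.664; 0.425 to 1.02) and Mfng (0.631; 0.353 to 1.09) also included 1, and those of Notch1, Dll3 and Jag1 lay below it. The Notch1 interval was below 1 in all 11 alternatives for this comparison, with ratios of 0.600 to 0.750. Some of these alternatives returned the main ratio, as they left the compared cells unchanged.

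Dll3 in S-high cells stood near its cycle-low level. It was at 42.2 CPM, a ratio to cycle-low of 0.949 (0.768 to 1.17), and 1.82 times (1.42 to 2.33) its G2/M-high level. Dll1 was at 22.5 CPM in S-high cells, near its G2/M-high level, at 0.642 (0.488 to 0.838) of cycle-low. Whether the phase profiles of Dll1 and Dll3 differ was not tested. Notch3 was at 0.513 (0.352 to 0.735) and Mfng at 0.451 (0.273 to 0.721) of cycle-low. Of the 7 members 0 were called in S-high cells, where 2.09% of 9895 genes were called lower and 4.82% higher. With the added rule 5 of 7 were lower, against 24.8% of all genes. In cells of 2000 to 6000 UMIs the Notch3 ratio was 0.299 (0.143 to 0.569) and was called.

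The other Notch genes did not follow 1 direction. Of 53 such genes with a row in the table, 41 had enough UMIs for the G2/M comparison, and 2 were called higher and 1 lower, with a median ratio of 0.951. Nrarp rose from 10.97 to 37.5 CPM (3.42; 2.54 to 4.66) and Neurl1b, a ubiquitin ligase for Notch ligands, from 2.46 to 8.67 CPM (3.53; 1.87 to 7.11). Dtx3, a Deltex family ligase, fell to 0.466 (0.348 to 0.620) of its cycle-low level. Of 7 proneural list genes tested, Btg2 (0.508) and Olig1 (0.509) were called lower and 0 higher.

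Levels of these other genes set the members in place. Of the fringe genes Lfng (164 CPM) was the most abundant, before Rfng (27.7 CPM) and Mfng (10.6 CPM). Notch4 (1.44 CPM), Dll4 (2.53 CPM) and Jag2 (0.172 CPM) were close to absent, and Dner, a Notch ligand of neurons and glia, stood at 85.5 CPM. Among targets Hes1 was at 216 CPM, Hes5 at 63.7 CPM, Nrarp at 20.9 CPM and Hey1 at 19.7 CPM. The proneural gene Neurog2 was at 0.115 CPM, from 2 UMIs.

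The Delta ligands were higher in cells with more nuclear RNA. Cells of 1000 or more UMIs were put in quartiles, of 894 cells each, by the share of UMIs from a nuclear RNA list, nearly all of it the nuclear non-coding RNA Malat1. From the bottom to the top quartile the summed share rose from 0.0961% to 0.725%. Over the 4 quartiles Dll3 stood at 23.7, 23.4, 36.4 and 67.4 CPM, and Dll1 at 19.3, 23.8, 24.2 and 47.3 CPM. Both thus rose chiefly in the top quartile.

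The ratio of top to bottom quartile was 2.84 (2.26 to 3.60) for Dll3 and 2.45 (1.89 to 3.21) for Dll1. These were the 2 of 7 members called higher, where 2.99% of 9808 genes were. With the added rule 6 of 7 members were higher, against 26.7% of all genes, and the median member ratio was 1.79 against 1.08. Notch2 was at 2.11 (1.40 to 3.22), Mfng and Notch3 both at 1.79, and Notch1 at 1.34 (1.11 to 1.61). Jag1 was at 1.32 (0.962 to 1.80), the single member whose interval included 1.

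The quartiles also differed in depth, with medians of 4173.5, 4489, 4044 and 3421 UMIs, and in cycling, with 24.8% cycle-low cells in the bottom and 49.7% in the top quartile. Within cycle-low cells the ratio was 2.56 (1.58 to 4.38) for Dll1 and 1.77 (1.19 to 2.69) for Dll3, the latter no longer called. In cells of 2000 to 6000 UMIs Dll3 was at 3.14 and Dll1 at 1.98 (1.41 to 2.80), no longer called. Without clusters 5 and 6, each of them described with the clustering, the ratios were 2.14 (1.65 to 2.78) for Dll3 and 1.96 (1.47 to 2.63) for Dll1, whose call was lost. Of the other Notch genes Dner (1.87) and Mib2 (2.49), another ubiquitin ligase for Notch ligands, were called higher, as were Btg2 (1.77) and Neurod1 (4.38) of the proneural list.

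**Figure D3:**
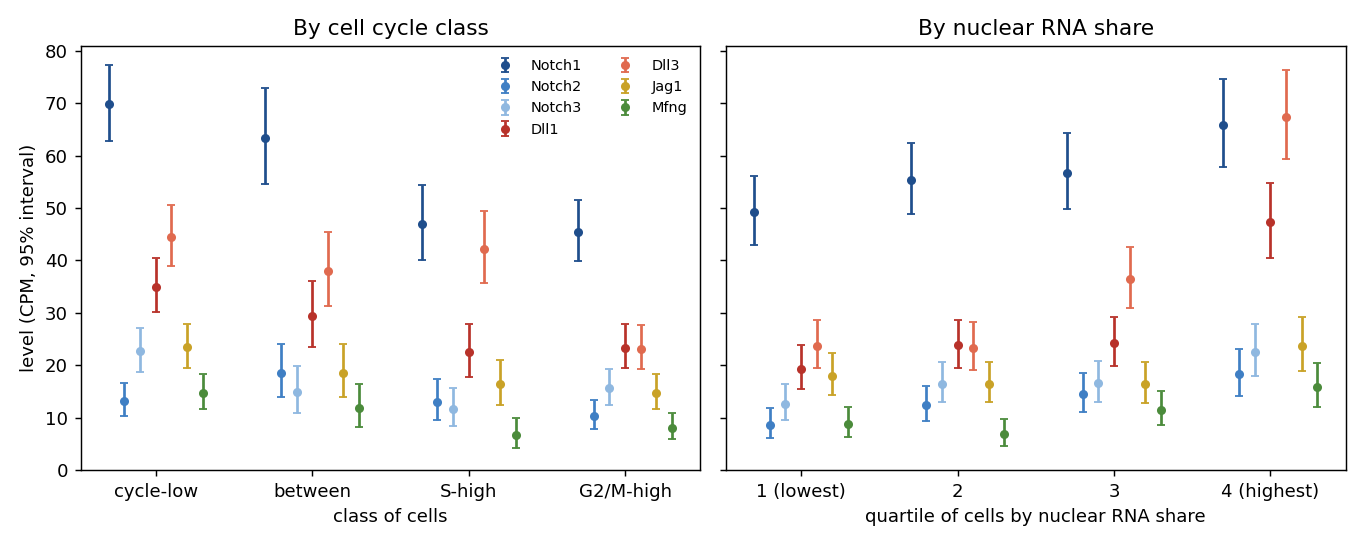
Level of each member in CPM with 95% intervals for counting error, by cell cycle class (left) and by quartile of the nuclear RNA share (right), in cells of 1000 or more UMIs. Dll3 falls to 23.2 CPM in G2/M-high cells and reaches 67.4 CPM in the top nuclear quartile, where it matches Notch1 at 65.8 CPM.

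Shallow cells carried more Delta and Mfng RNA relative to their total, a comparison added after the data were seen. Over quartiles of all 3765 cells by total UMIs, with medians of 1521, 3143, 4746 and 7971, Dll3 stood at 81.3, 60.1, 31.4 and 23.3 CPM. Dll1 stood at 55.1, 38.0, 32.3 and 17.6 CPM, and Mfng at 24.8, 12.2, 12.01 and 6.94 CPM. Notch1 and Notch3 also stood highest in the shallowest and lowest in the deepest quartile, at 82.0 against 49.0 CPM and at 23.4 against 16.0 CPM. Notch2 lay between 11.99 and 16.3 CPM and Jag1 between 15.8 and 25.5 CPM, without that order.

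The ratio of the shallowest to the deepest quartile was 3.49 (2.76 to 4.41) for Dll3, 3.13 (2.35 to 4.13) for Dll1 and 3.58 (2.29 to 5.50) for Mfng. These 3 of 7 members were called higher, where 1.47% of 10148 genes were. With the added rule 4 of 7 were, including Notch1 at 1.67 (1.35 to 2.05), against 15.3% of all genes. Within cycle-low cells of 1000 or more UMIs the ratios were 5.18 (3.39 to 8.01) for Dll3 and 3.99 (2.50 to 6.39) for Dll1, while Notch1 was at 1.15 (0.789 to 1.64). Without clusters 5 and 6 Dll3 was at 2.36 (1.74 to 3.16), Mfng at 2.64 (1.52 to 4.42) and Dll1 at 2.02 (1.38 to 2.88), the last no longer called. Small cells and poorly captured cells cannot be told apart by total UMIs.

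**Figure D4:**
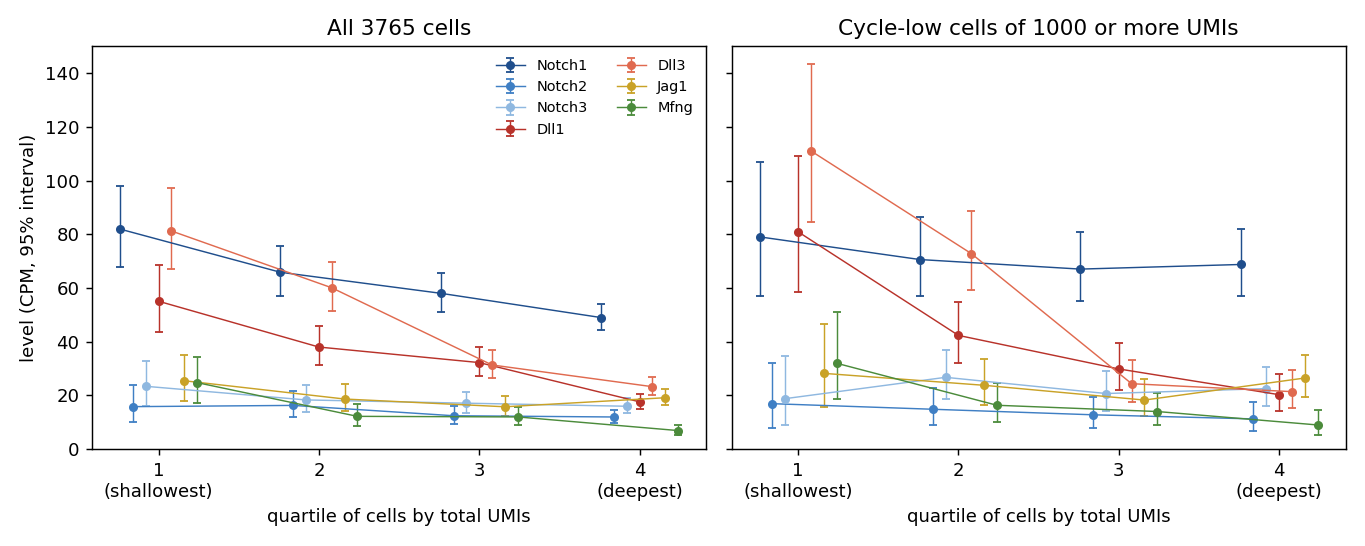
Level of each member in CPM with 95% intervals for counting error by quartile of total UMIs, for all 3765 cells (left) and for cycle-low cells of 1000 or more UMIs (right). Dll3 and Dll1 descend from the shallowest to the deepest quartile in both panels, whereas Notch1 in cycle-low cells stays between 67.1 and 79.1 CPM.

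To place the members among cell groups, cells were clustered without the genes of the Notch, proneural, cell cycle, marker and nuclear lists. The members thus played no part in the clusters. Of the 8 clusters, cluster 4 (622 cells) was 92.4% G2/M-high. Cell cycle genes outside the lists, among them Aspm and Ccnb1, took part in the clustering, so this cluster is not independent of the cycle classes. Cluster 5 (320 cells) was led by Ndrg1, Slc16a3, Igfbp5, Cdkn1c and Bnip3, of which Ndrg1, Slc16a3 and Bnip3 are known hypoxia-induced genes. Cluster 6 (137 cells) was shallow, with a median of 999 UMIs, and had a nuclear RNA share of 3.12%. Cluster 8 (34 cells) was called immature neuron-like, with 9 of 11 tested neuron markers higher and Stmn2 and Tubb3 among its leading genes. The other clusters stayed unnamed.

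In this clustering the Delta ligands and Mfng all had their highest ratio in cluster 5. There Dll3 stood at 132 CPM against 30.3 CPM in all other cells (4.37; 3.60 to 5.29), Dll1 at 82.0 against 24.5 CPM (3.34; 2.62 to 4.23) and Mfng at 32.4 against 9.24 CPM (3.51; 2.34 to 5.12). These 3 members were called higher, where 3.55% of 11057 genes were. Over 9 other filters or clusterings these genes were highest in 1 shared cluster in 5 and in different clusters in 4, with the highest ratio of Dll3 between 2.25 and 15.5 and that of Dll1 between 1.62 and 6.62. The cluster held 6.03% of all UMIs but 21.9% of those of Dll3, 17.7% of Dll1 and 18.4% of Mfng. Jag1 stood at 11.4 CPM there, a ratio of 0.595 (0.304 to 1.05), and Notch1 at 88.6 CPM, a ratio of 1.61 (1.29 to 1.999). Notch target genes were also higher in this cluster, at a list ratio of 2.03 (1.87 to 2.20), with Hes5 called. Markers of other cell types moved with it, with 3 of 7 astrocyte markers called higher (Aldh1l1, Aldoc and Apoe; list ratio 2.42, 2.31 to 2.53) and Cspg4 of 2 tested oligodendrocyte precursor markers (list ratio 2.48, 2.09 to 2.93), as well as the mural marker Tagln, Egfl7 of the endothelial list and Otx2 of the choroid plexus list. Their part in the Delta and Mfng levels was not tested.

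In cluster 6 the called members were Notch1 at 144 CPM (2.58; 1.77 to 3.65), Notch3 at 65.4 CPM (3.93; 2.17 to 6.59), Dll1 at 78.5 CPM (2.87; 1.69 to 4.59) and Jag1 at 61.1 CPM (3.36; 1.82 to 5.72). In that cluster 9.15% of genes were called higher, and the Notch3 and Jag1 values rest on 15 and 14 UMIs. In cluster 4 Dll3 was called lower, at 17.9 against 42.6 CPM (0.419; 0.326 to 0.533), where 1.45% of genes were. Between them the clusters thus gave 8 calls over the members. Notch2 had none, and its level lay between 5.80 and 15.2 CPM in clusters 1 to 7.

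Among the other clusters Jag1 was at 38.7 CPM (2.13; 1.29 to 3.36) in cluster 7, led by Slc7a3, Nupr1 and Chac1, and at 25.4 CPM (1.55; 1.22 to 1.95) in cluster 2. In the neuron-like cluster Notch1 had 7 UMIs and Notch3 had 0, and no member ratio there had an interval clear of 1. With a coarser clustering (resolution 0.4) 4 calls were made in place of 8.

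**Figure D5:**
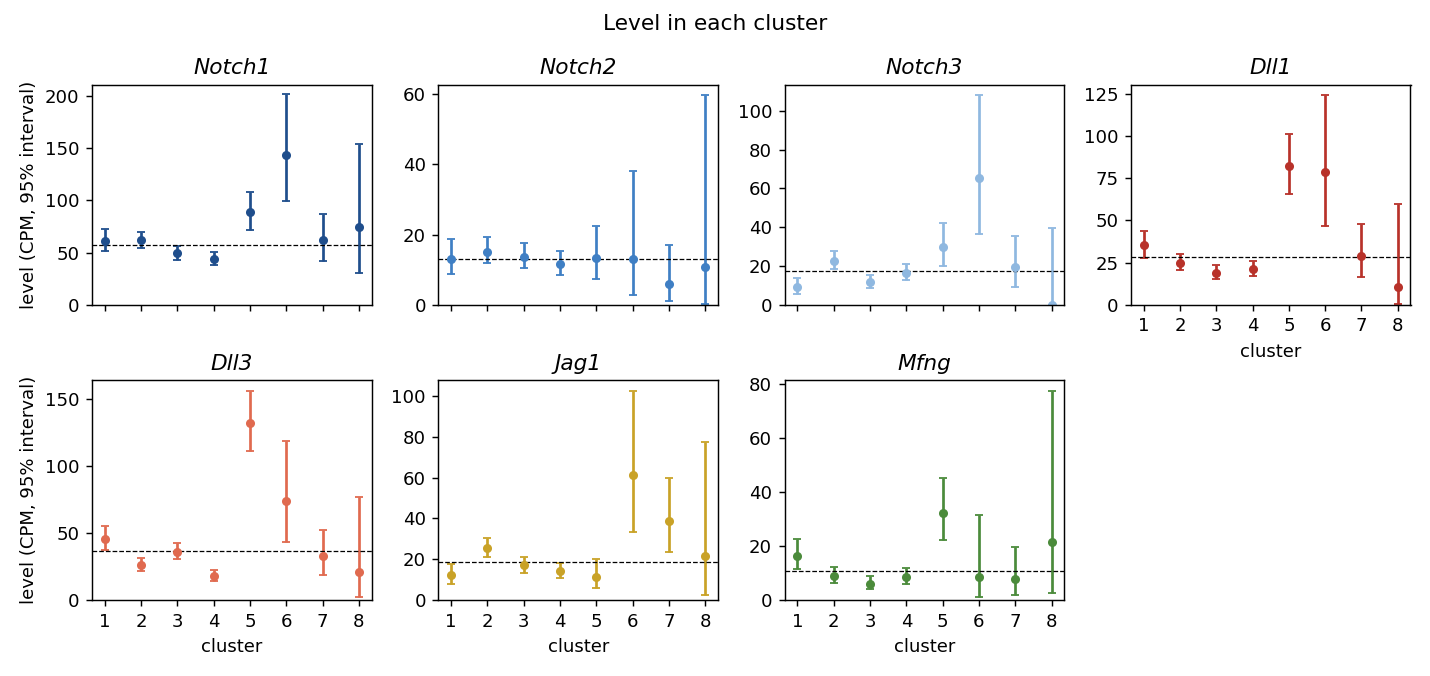
Level of each member in CPM with 95% intervals for counting error in each of 8 clusters; the dashed line is the level over all cells. Dll3, Dll1 and Mfng stand above their line in cluster 5, at 132, 82.0 and 32.4 CPM, and Notch1, Notch3 and Jag1 in cluster 6.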

How the data were processed

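Per the labels, primary neurospheres were dissociated and captured by Drop-seq. The values deposited by the authors are raw UMI counts, 1 column per barcode, without normalization. The genome build was mm10, per the submitters' processing notes, and the aligner and counting program are not stated there. Because barcodes are tied to neither of the 2 samples, the table was analysed as 1 sample, without a test.

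Of 4000 barcodes, 235 with under 500 genes or over 10% mitochondrial UMIs were left out. Among the barcodes, 285 ended in an unread base and 25 pairs differed by 1 base. Scrublet (scanpy 1.11.5; 5% expected) marked 0 doublets and was taken not to have worked, so none were removed.

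CPM are summed counts over summed UMIs. Intervals, all at 95%, were exact Poisson for CPM, Clopper-Pearson for shares (3 counts as the limit where a count was 0) and conditional binomial for ratios. Calls were made over genes with at least 50 UMIs, with genes of the class lists left out of the cycle and nuclear comparisons. Thinning drew UMIs without replacement (seed 0). Clusters came from 2000 variable genes, 30 principal components, 15 neighbours and Leiden (leidenalg 0.10.2) at resolution 0.8. The scripts ran on scipy 1.17.1, numpy 2.4.6 and anndata 0.12.19 under Python 3.11.15. The ratio and co-detection scripts were tested on simulated data.

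The members and gene lists were chosen with earlier results of these data known. Of 272 list genes, 247 had a row, 5 of them under an older symbol. Named genes were the members, other Notch and proneural genes of highest level or past the call, the 5 genes most like each member and leading genes of clusters. In cells with a Delta ligand, Nrarp, Hes1, Hes5, Hes6, Btg2, Olig1, Olig2, Neurod1 and Dner were chosen after their values were seen. The same holds for the marker Egfl7 and for the rule that an interval lies past 1. Alternatives covered the cell filters, thinning depth and draw, cycle and nuclear definitions, depth bands, ratio minimum and clustering. The values of 1 proneural list gene are not reported here.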

Additional observations from a re-analysis of the deposited data

How the results depend on the processing

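Over 536 alternative values, 476 stayed within the main interval or, for counts, within 1.5 times the main count, and 60 moved, while 0 called values changed direction. Some of the 476 could not move, since a ratio minimum of 5 to 4 or a lower UMI minimum leaves a ratio as it is. A gene minimum of 200 also returned the main cycle and nuclear ratios. Values not called that crossed 1 included Dll1 and Notch2 in G2/M-high cells and Mfng in S-high cells. The summed member level of 181 CPM was 196 CPM without the deepest 10% of barcodes and 220 CPM as a mean of per-cell CPM. The receptor and ligand co-detection ratio of 1.14 was 1.51 after thinning to 1000 UMIs. The summed G2/M-high to cycle-low ratio of 0.630 was 0.715 without the deepest barcodes, 0.758 with 6 proliferation genes as the cycling call, 0.735 with all cells thinned to 1000 UMIs and 0.767 in cells of 2000 to 6000 UMIs. The 1 member called in G2/M-high cells became 0 under those 4 settings and without barcodes ending in an unread base or 1 base from another, and 2 at a ratio minimum of 5 to 4. For S-high cells the 0 became 1 without the deepest barcodes, 1 in cells of 2000 to 6000 UMIs and 2 at a minimum of 5 to 4. The 2 called by nuclear RNA share became 1 in cells of 2000 to 6000 UMIs and 4 at a minimum of 5 to 4. The 8 calls by cluster became 4 at Leiden resolution 0.4. The causes of these moves were not tested. No paired analysis was possible because barcodes carry no sample. Depth limits what a pair of low genes can show: Notch2 and Mfng were found together in 0 cells where the product of their shares gives 2.12.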
